A study of Homo sapiens with 6 samples.

Results

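The genes described are 10 members of the fibroblast growth factor (FGF) system, taken by symbol from a table of 20811 genes: the ligands FGF1, FGF2 and FGF19, the binding protein FGFBP1, the co-receptor KLB, the receptors FGFR1, FGFR2, FGFR3 and FGFR4, and FGFRL1. Expression was measured in HuCCT1, a human intrahepatic cholangiocarcinoma cell line, transduced with a human THY1-CMV-GFP lentivirus (HuCCT1/CD90+) or with the Lenti-CMV-GFP-2A-Puro-Blank lentivirus (HuCCT1/CD90-). There were 3 libraries of each line, cells of both lines were grown in the same serum-containing medium, and both vectors carried GFP. An effect of THY1 and any other difference that arose between the transduced populations cannot be told apart, and whether the libraries came from separate cultures is not given in the sources used here.

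FGFs bind receptor tyrosine kinases on the cell surface together with heparan sulfate, and the activated receptor docks the adaptor FRS2 and signals through RAS and the ERK kinases. FGF1 and FGF2 act locally and are held by heparan sulfate until a carrier such as FGFBP1 releases them, whereas FGF19 is a hormone of the gut and the biliary tract that needs the co-receptor β-Klotho, the product of KLB, to act on FGFR4. FGFRL1 binds FGFs but lacks the kinase domain. In the biliary tract the family is best known for FGFR2 fusions, which are drug targets in intrahepatic cholangiocarcinoma.

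RPM (reads scaled to 1e6 reads on the panel) was deposited for 1 short amplicon per gene, and whole reads could be recovered from it. The libraries held 8587634 to 10551516 reads on genes. At most 3 reads, which correspond to 0.284 to 0.349 RPM, were treated as the detection floor of a library, and this floor covers counting error only. Amplicons can amplify unequally, so levels were compared between the lines and not between genes, and the isoform that an amplicon reads is not known. THY1 had 0, 1 and 0 reads in HuCCT1/CD90- and 435, 445 and 680 reads in HuCCT1/CD90+. The biliary markers KRT7, KRT19, SOX9 and EPCAM were above the floor in both lines. KRT7 was at 3433 ± 330 RPM in HuCCT1/CD90- against 3656 ± 321 RPM in HuCCT1/CD90+ (SD, n = 3 each) and did not differ by limma (adjusted p = 0.65). KRT19 was at 3228 ± 214 against 4146 ± 214 RPM (adjusted p = 0.029, or 0.14 with the replicate number as a block). EPCAM rose from 28.6 ± 3.60 to 363 ± 50.5 RPM (adjusted p = 0.0007). SOX9 was at 66.2 ± 28.2 against 120 ± 4.66 RPM, with no overlap, at an adjusted p of 0.16. Of the hepatocyte markers ALB, APOB, TTR and CYP3A4 were at the floor in both lines. APOA1 had 39, 40 and 18 reads in HuCCT1/CD90- and 4, 2 and 0 in HuCCT1/CD90+, and fell from 3.24 ± 1.33 to 0.221 ± 0.215 RPM (SD, n = 3 each; adjusted p = 0.026, limma). That call was lost without any 1 library except HuCCT1/CD90- replicate 3 (adjusted p 0.067 to 0.09).

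Of the 10 genes, FGFR2 was higher and FGFRL1 was lower in HuCCT1/CD90+, and the other 8 did not pass the test. The test was limma on log2(RPM + 1) with Benjamini-Hochberg adjustment over all 20811 genes and a threshold of 0.05. Over all genes 18.9% passed, 9.41% higher and 9.52% lower, so 2 of 10 is close to the background. Among genes with a low mean level, from 0.1 to 10 RPM, 24.6% passed. The same 2 genes passed the study's thresholds, a fold change of 1.5 and an unadjusted p of 0.05, which 20.1% of all genes passed. The median log2 fold change of the 10 genes was 0.09, against 0.000 over all genes.

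**Figure D1:**
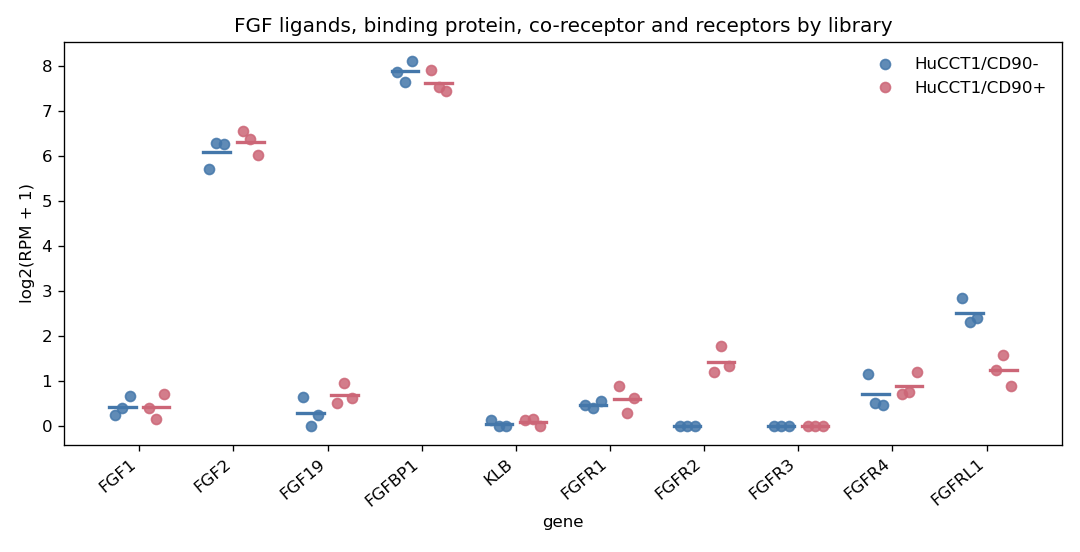
Values of the 10 genes on the log2(RPM + 1) scale (vertical axis) in each library, with HuCCT1/CD90- in blue, HuCCT1/CD90+ in red and the line mean as a bar (n = 3 each). The points of the lines are apart for FGFR2 and FGFRL1 and overlap for the other 8 genes.

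FGFR2, a receptor tyrosine kinase whose splice forms part epithelial from mesenchymal cells, had reads in HuCCT1/CD90+ only. It had 0 reads in each of the 3 HuCCT1/CD90- libraries. In HuCCT1/CD90+ it had 12, 21 and 14 reads, or 1.29, 2.44 and 1.52 RPM. The lowest HuCCT1/CD90+ library was therefore above the floor, and the groups did not overlap, as was the case for 35.0% of all genes. These HuCCT1/CD90+ libraries averaged 1.75 ± 0.613 RPM (SD, n = 3). Set against 3 reads per library, the floor in HuCCT1/CD90-, this is at least 5.45-fold higher. Limma gave 1.44 on the log2 scale (standard error 0.17, 95% confidence interval 0.98 to 1.89, adjusted p = 0.009). FGFR2 passed the low-count filters of edgeR and DESeq2 only through the HuCCT1/CD90+ libraries, so their p-values are not given as support. The limma fit had no filter. With the replicate number as a block the adjusted p was 0.049, close to the threshold. The summed reads were 0 against 47, with exact Poisson 95% intervals of 0 to 3.69 and 34.5 to 62.5, which cover counting error only. In bulk RNA, fewer cells with the transcript and less transcript per cell cannot be told apart.

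FGFRL1, the receptor without a kinase domain, went the other way. It had 66, 37 and 44 reads in HuCCT1/CD90- and 13, 17 and 8 reads in HuCCT1/CD90+, or 6.25, 3.96 and 4.27 RPM against 1.39, 1.98 and 0.868 RPM. Every HuCCT1/CD90+ library lay below every HuCCT1/CD90- library. The mean went from 4.83 ± 1.25 to 1.41 ± 0.556 RPM (SD, n = 3 each), 3.41-fold lower. Limma gave -1.28 on the log2 scale (standard error 0.25, 95% confidence interval -1.93 to -0.62, adjusted p = 0.032). This call was less firm than that of FGFR2. With the replicate number as a block the adjusted p was 0.097, and when 1 library was left out it was 0.074, 0.072 and 0.089 without HuCCT1/CD90- replicates 1, 2 and 3 and 0.10, 0.051 and 0.083 without HuCCT1/CD90+ replicates 1, 2 and 3. On recovered reads DESeq2 gave an adjusted p of 0.00044 and a log2 fold change of -1.78, with 37.1% of the genes it tested passing. FGFRL1 met edgeR's filter through the line in which it was high, so its edgeR p, from a fit in which 44.4% of genes passed, is not given as support.

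The windows before the transcription starts of FGFR2 and FGFRL1 are shown because these were the members whose transcripts differed. They are the 250 bases upstream of the first RefSeq start in the promoter table, GRCh38.p14, for FGFR2 chr10:121598445-121598694 on the minus strand and for FGFRL1 chr4:1012214-1012463 on the plus strand. Capitals mark GC boxes (GGGCGG, either strand), the element read by SP1-type factors.
FGFR2: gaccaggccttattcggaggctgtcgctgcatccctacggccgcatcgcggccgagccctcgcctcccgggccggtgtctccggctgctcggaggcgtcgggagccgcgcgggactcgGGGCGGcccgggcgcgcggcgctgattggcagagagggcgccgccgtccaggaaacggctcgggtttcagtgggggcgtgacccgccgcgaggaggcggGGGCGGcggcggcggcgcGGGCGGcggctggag
FGFRL1: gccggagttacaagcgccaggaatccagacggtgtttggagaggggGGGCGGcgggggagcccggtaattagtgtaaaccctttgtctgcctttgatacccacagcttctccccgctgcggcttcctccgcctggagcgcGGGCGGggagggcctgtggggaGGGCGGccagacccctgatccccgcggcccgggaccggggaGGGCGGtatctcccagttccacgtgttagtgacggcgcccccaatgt
The FGFR2 window had 78.4% G and C and 3 GC boxes and the FGFRL1 window 67.6% and 4 GC boxes, against a median of 58.0% G and C over 35093 such windows, of which 42.6% held a GC box. The E-box CACCTG, a sequence bound by ZEB and SNAIL repressors, was in neither window on either strand and in 17.5% of all windows. A TATA box (TATAAA, either strand) was in neither and in 10.7% of all windows. RefSeq gives FGFR2 5 such windows, of which 1 other holds the E-box, and the FGFRL1 window lies inside the annotated gene, downstream of its outermost GENCODE 29 start. Which starts were used in these cells is not known for either gene.

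The other 3 signalling receptors were at or near the limit of detection in both lines. FGFR1, the receptor typical of mesenchymal cells, had 4, 3 and 5 reads in HuCCT1/CD90- and 8, 2 and 5 in HuCCT1/CD90+. FGFR4, the receptor of FGF19, had 13, 4 and 4 reads against 6, 6 and 12. FGFR3 had 0 reads in all 6 libraries, so that any transcript was below the floor of 0.284 to 0.349 RPM. The values of FGFR1 and FGFR4 overlapped between the lines. Their log2 fold changes were 0.13 (95% confidence interval -0.32 to 0.58, adjusted p = 0.74 from limma) and 0.18 (-0.51 to 0.86, adjusted p = 0.78). Changes inside these intervals remain compatible with the data. FGFR1 overlaps LETM2 on the other strand, and LETM2, at 3.01 ± 0.109 and 3.66 ± 0.481 RPM (SD, n = 3 each), did not pass either (adjusted p = 0.18, limma).

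**Figure D2:**
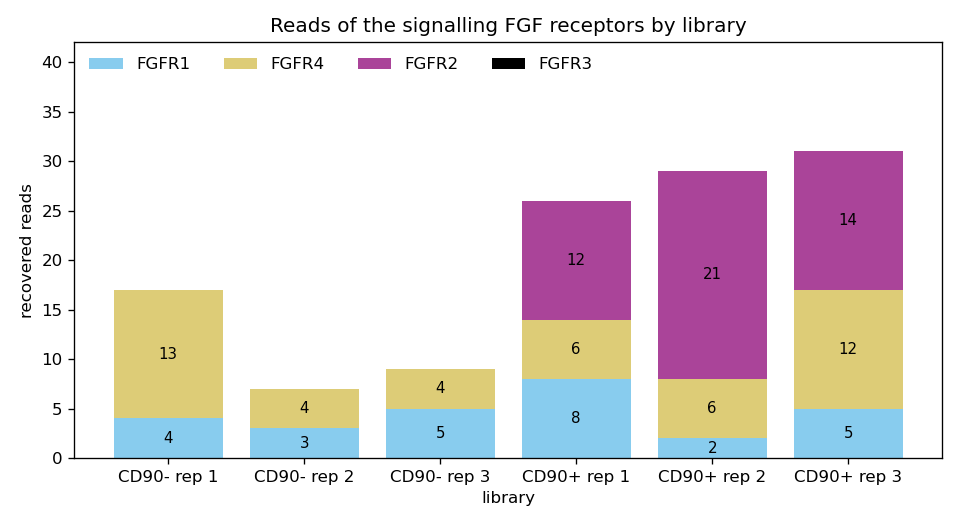
Recovered reads (vertical axis) of FGFR1, FGFR4, FGFR2 and FGFR3 stacked for each library, with the count written in each segment. FGFR2 adds 12, 21 and 14 reads to the HuCCT1/CD90+ bars and none to the HuCCT1/CD90- bars, and FGFR3 has no reads.

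The 4 receptors together had 17, 7 and 9 reads in HuCCT1/CD90- and 26, 29 and 31 reads in HuCCT1/CD90+. Their summed level was 1.08 ± 0.466 and 3.18 ± 0.337 RPM (SD, n = 3 each). This difference mostly restates the FGFR2 reads and is given with no test. FGFR2 held 0% of these reads in each HuCCT1/CD90- library, with exact binomial 95% intervals reaching up to 19.5%, 41.0% and 33.6%. In HuCCT1/CD90+ it held 46.2% (26.6 to 66.6%), 72.4% (52.8 to 87.3%) and 45.2% (27.3 to 64.0%). The binomial intervals cover counting error only. The share of FGFR4 was 59.4 ± 16.1% in HuCCT1/CD90- and 27.5 ± 9.78% in HuCCT1/CD90+, and that of FGFR1 40.6 ± 16.1% and 17.9 ± 12.0% (SD, n = 3 each). The reads of FGFR1 and FGFR4 themselves overlapped between the lines, so these lower shares restate the FGFR2 reads added to the total and are given with no test. These shares compare the lines only, since the amplicons of different receptors may not amplify alike.

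FGF2, a heparin-binding mitogen without a classical secretion signal, was the FGF ligand with the most reads, 540 to 864 per library. It had 51.2, 77.8 and 76.1 RPM in HuCCT1/CD90- and 92.6, 81.7 and 63.7 RPM in HuCCT1/CD90+, so the lines overlapped. The mean was 68.3 ± 14.9 and 79.4 ± 14.6 RPM (SD, n = 3 each). Limma put the difference at 0.22 on the log2 scale (standard error 0.24, 95% confidence interval -0.41 to 0.85, adjusted p = 0.64). At this depth counting error is small, and the interval was set by the spread between libraries. The end of FGF2 overlaps NUDT6 on the other strand, and it is not stated whether reads were counted by strand. NUDT6 was at 7.83 ± 2.30 and 10.4 ± 1.88 RPM (SD, n = 3 each; adjusted p = 0.39, limma).

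FGFBP1, the secreted carrier that frees FGF2 from the matrix, also overlapped. It had 234, 199 and 277 RPM in HuCCT1/CD90- and 240, 185 and 173 RPM in HuCCT1/CD90+. The mean was 237 ± 39.1 and 199 ± 35.9 RPM (SD, n = 3 each). Limma put the difference at -0.25 on the log2 scale (standard error 0.19, 95% confidence interval -0.75 to 0.25, adjusted p = 0.51). For FGF2 and FGFBP1 changes inside these intervals remain compatible with the data, and neither gene passed with edgeR (adjusted p = 0.33 and 0.21) or DESeq2 (adjusted p = 0.37 and 0.28).

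FGF1, a ligand that binds all FGF receptors, was near the floor, with 2, 3 and 6 reads in HuCCT1/CD90- and 3, 1 and 6 in HuCCT1/CD90+. Its log2 fold change was -0.01 (95% confidence interval -0.52 to 0.50, adjusted p = 1 from limma). FGF19 had 6, 0 and 2 reads against 4, 8 and 5, a log2 fold change of 0.40 (-0.19 to 0.98, adjusted p = 0.33), and the lines overlapped. KLB, the co-receptor that FGF19 needs, was at the floor in both lines, with 1, 0 and 0 reads and 1, 1 and 0 reads, so no fold is given. FGF19, FGFR4 and KLB were thus all read at most 13 times per library.

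**Figure D3:**
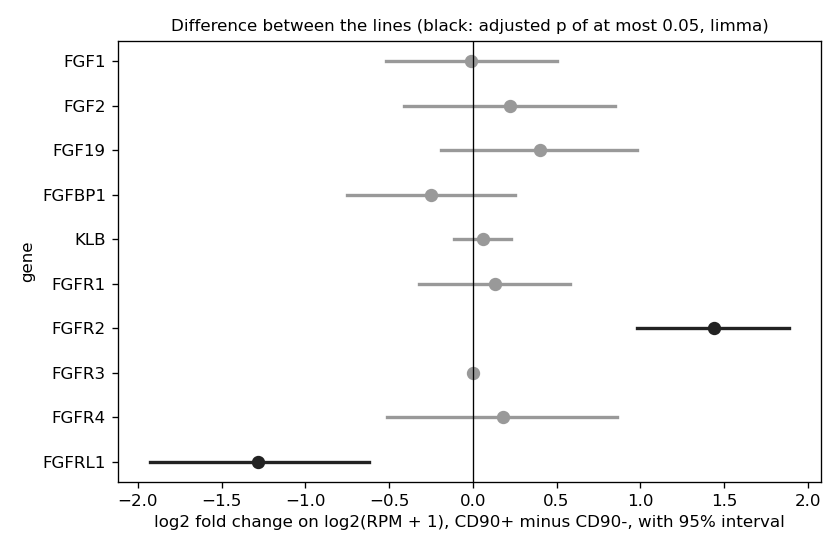
Log2 fold change on log2(RPM + 1) of HuCCT1/CD90+ over HuCCT1/CD90- (horizontal axis) with 95% confidence intervals from limma for the 10 genes. The intervals of FGFR2 (0.98 to 1.89) and FGFRL1 (-1.93 to -0.62) leave out 0, and FGFR3 has no visible interval because all its values were 0.

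The change of each member was also set beside that of the genes around it. Positions are those of GENCODE 29 on GRCh38, and neighbours are the 50 closest genes whose mean reached 10 RPM. FGFR2 lies on chromosome 10 from 121478334 to 121598458, where the median log2 fold change of the neighbours was -0.01. FGFRL1 lies on chromosome 4 from 1009936 to 1026897, beside FGFR3 (1793293 to 1808872). Around FGFRL1 the median was -0.25 and 15 of 50 neighbours were higher. With that median taken off, the log2 fold change of FGFRL1 was -1.13 (adjusted p = 0.054, limma). FGFBP1, on chromosome 4 from 15935569 to 15938740, also had a neighbour median of -0.25, which equals its own log2 fold change, while KLB (39406853 to 39451536) and FGF2 (122826708 to 122898236), further along the same chromosome, had medians of 0.29 and 0.24. FGF2 itself had a log2 fold change of 0.22. FGF19 lies on chromosome 11 from 69698232 to 69704642, in a gene cluster with CCND1. Against the 9.41% of all genes that were higher, of 9 genes of that cluster 3 were higher and none lower (MYEOV, CCND1 and PPFIA1, with log2 fold changes of 1.80, 1.12 and 0.62, the last at an adjusted p of 0.074 with the replicate block and of 0.062 to 0.08, thus never called, without any 1 of the 6 libraries), and FGF3 and FGF4 were at the floor. FGF1 and FGFR4 on chromosome 5 and FGFR1 on chromosome 8 had neighbour medians of 0.01, 0.01 and -0.04.

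The remaining FGF ligands were mostly not detected. Of the 22 FGF genes, FGF1, FGF2 and FGF19 included, 9 were above the floor in at least 1 library, 4 had a mean of at least 1 RPM, and FGF2 alone reached 10 RPM. Of the other 19, 1 was higher and none lower, against 9.41% and 9.52% of all genes. FGF11, an intracellular FGF homologue that does not signal through the receptors, rose from 1.35 ± 0.514 to 3.56 ± 0.784 RPM (SD, n = 3 each; 0.97 on the log2 scale, adjusted p = 0.045 from limma, and 0.085 to 0.14 when any library but HuCCT1/CD90- replicate 2 was left out). FGF7, a ligand of the epithelial splice form of FGFR2, had 1.90, 1.71 and 1.84 RPM in HuCCT1/CD90- and 1.18, 0.932 and 1.41 RPM in HuCCT1/CD90+. Its groups did not overlap, but it did not pass (log2 fold change -0.38, adjusted p = 0.057, limma). FGF17, which belongs to the FGF8 subfamily, had a difference of -0.87 on the log2 scale and did not pass (adjusted p = 0.17), and its values overlapped. FGF10, another ligand of that splice form, had 0 reads in all libraries.

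Outside the cell, 2 of the 7 measured partners were lower and none higher, against 9.52% and 9.41% of all genes. FLRT2, a membrane protein that binds FGF receptors, had 20, 12 and 12 reads in HuCCT1/CD90- and none in HuCCT1/CD90+, and was at least 4.15-fold lower (adjusted p = 0.0053, limma). FGFBP3, a relative of FGFBP1, had 7, 9 and 8 reads in HuCCT1/CD90- and 0, 2 and 0 in HuCCT1/CD90+, at least 2.29-fold lower (adjusted p = 0.019). Its adjusted p was 0.059, 0.068, 0.067 and 0.071 without HuCCT1/CD90- replicate 2 or 3 or HuCCT1/CD90+ replicate 1 or 3. FLRT3, a relative of FLRT2, had 1, 1 and 2 reads in HuCCT1/CD90- and 10, 4 and 13 in HuCCT1/CD90+, at least 3.06-fold higher, and the groups did not overlap. FLRT3 passed the study's thresholds, as did 20.1% of all genes, but not limma (adjusted p = 0.07). Being at the floor in HuCCT1/CD90-, it entered DESeq2 mainly through its HuCCT1/CD90+ reads, so that p is not given as support. KL, the other Klotho, was at the floor in both lines, and ANOS1, a heparan sulfate-binding modulator of FGFR1, did not pass (log2 fold change -0.07).

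Of 18 adaptors and kinases below the receptors 3 were higher and 1 lower, against 9.41% and 9.52% of all genes. FRS2, the docking protein, did not pass (0.19 on the log2 scale, adjusted p = 0.63). GAB1, which couples FRS2 to phosphoinositide 3-kinase, rose from 5.78 ± 2.24 to 18.7 ± 2.07 RPM (SD, n = 3 each; 1.59 on the log2 scale, adjusted p = 0.03, or 0.08 with the replicate block). MAP2K1, the gene of MEK1, rose from 107 ± 4.58 to 190 ± 16.7 RPM (adjusted p = 0.0052), and BRAF from 33.1 ± 1.54 to 47.0 ± 4.35 RPM (adjusted p = 0.021). BRAF lies where neighbours were higher by a median of 0.47, close to its own log2 fold change of 0.49. SHC1, an adaptor of many receptor kinases, fell from 445 ± 47.3 to 293 ± 28.8 RPM (adjusted p = 0.029). The 14 other genes had log2 fold changes from -0.50 for PLCG1 to 0.29 for SOS1. PLCG1 did not overlap between the lines. It missed limma (adjusted p = 0.094, or 0.15 with the replicate block) but passed edgeR (0.017) and DESeq2 (0.014), so its call depends on the fit. The calls of GAB1, SHC1 and BRAF were each lost without at least 4 of the 6 libraries taken in turn, with adjusted p-values of 0.055 to 0.11, and that of MAP2K1 was not lost.

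Genes that FGF and other ERK-activating receptors induce, many of which feed back on the pathway, moved in both directions. Of 16, 2 were higher and 3 lower, against 9.41% and 9.52% of all genes. DUSP5, a nuclear ERK phosphatase, rose from 21.5 ± 3.32 to 86.4 ± 8.17 RPM (SD, n = 3 each; 1.97 on the log2 scale, adjusted p = 0.0025 from limma). CCND1, the gene of cyclin D1, had 507, 429 and 376 RPM in HuCCT1/CD90- and 949, 948 and 945 RPM in HuCCT1/CD90+ (adjusted p = 0.0067). The transcription factor gene ETV1 fell from 19.1 ± 0.604 to 3.91 ± 0.693 RPM (-2.04 on the log2 scale, adjusted p = 0.0015) and EGR1 from 22.4 ± 1.67 to 9.31 ± 1.87 RPM (adjusted p = 0.011, or 0.051 without HuCCT1/CD90+ replicate 3). DUSP6, the cytoplasmic ERK phosphatase, went from 197 ± 16.7 to 136 ± 16.6 RPM, with an adjusted p of 0.045 that was 0.15 with the replicate block and 0.062 to 0.13 with any 1 library left out. ETV4 and ETV5, relatives of ETV1, had log2 fold changes of 0.26 and 0.10 and overlapped between the lines, and SPRY2 and SPRY4, inhibitors of receptor kinase signalling, had -0.22 and 0.06. Of the 9 genes of at least 1 RPM that did not pass, MYC was farthest from 0, at 0.57 on the log2 scale (adjusted p = 0.086 from limma). It passed with the replicate block (adjusted p = 0.037), edgeR (0.006) and DESeq2 (0.0025), so its call depends on the fit.

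**Figure D4:**
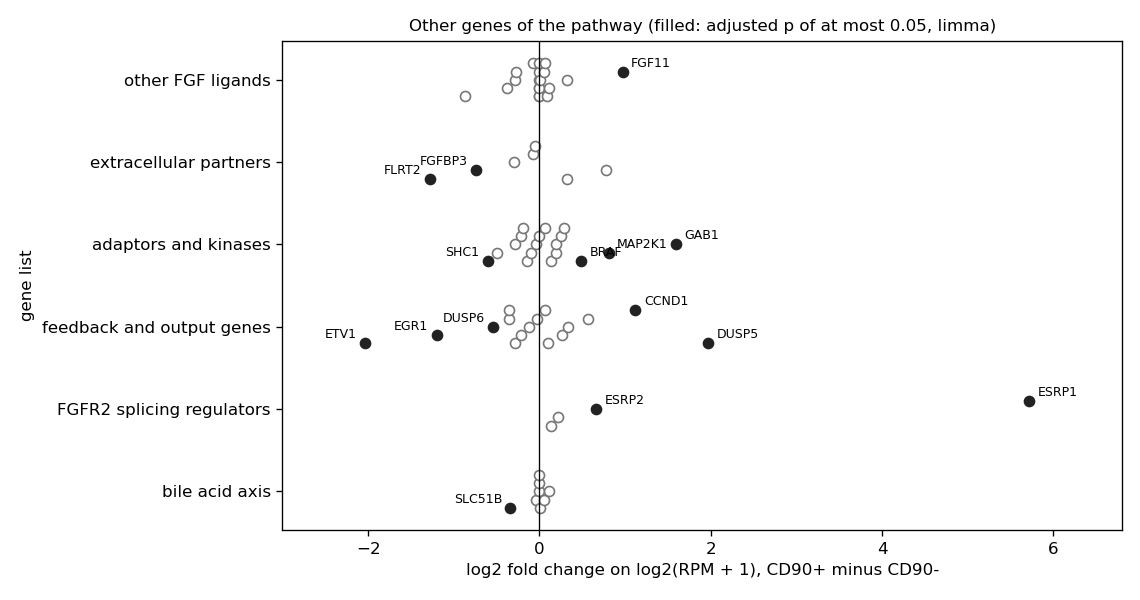
Log2 fold change on log2(RPM + 1) of HuCCT1/CD90+ over HuCCT1/CD90- (horizontal axis) for 6 lists of other genes of the pathway, 1 point per gene. The 15 filled and named points passed limma at an adjusted p of 0.05, from ETV1 at -2.04 to ESRP1 at 5.72, and the open points did not.

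Of 4 splicing regulators that act on the alternative exons of FGFR2, the epithelial factors ESRP1 and ESRP2 were higher and RBFOX2 and PTBP1 did not pass. Over all genes 9.41% were higher. ESRP1 had 2, 0 and 2 reads in HuCCT1/CD90- and 605, 475 and 503 reads in HuCCT1/CD90+, at least 181-fold higher (adjusted p = 0.00022, limma). ESRP2 rose from 34.9 ± 2.80 to 55.5 ± 2.33 RPM (SD, n = 3 each; adjusted p = 0.0067, and 0.049 with the block). RBFOX2 and PTBP1 had log2 fold changes of 0.13 and 0.22. The splice form of FGFR2 itself was not measured. All 8 genes of the bile acid axis that FGF19 controls, CYP7A1 included, were at the floor in both lines, although SLC51B, with 2, 3 and 3 reads against 0, passed limma at an adjusted p of 0.011 (0.15 with DESeq2, 0.054 with the block, 0.052 without HuCCT1/CD90+ replicate 3).

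Over the 6 lists, 8 of 72 measured genes were higher and 7 lower, or 15 in all. This is 20.8%, close to the 18.9% over all genes, and the counts of the single lists are to be read against the same 18.9%. Of the 72 genes, 49 were above the floor. With each library centred on its median, 9 were higher and 13 lower. The median log2 fold change was 0.00, or -0.04 above the floor, against 0.000 and -0.009 over all genes. Markers of other cell types moved as well, and their part in these results was not tested. The summed level of 7 fibroblast markers ranged from 41.8 to 65.3 RPM over the HuCCT1/CD90- libraries and from 20.4 to 24.7 RPM over the HuCCT1/CD90+ libraries, with 7 and 3 of them above the floor. Of the 7, 5 were lower, against 9.52% of all genes. LUM fell from 26.4 to 7.30 RPM, DCN from 7.09 to 0.0387 RPM and PDGFRB from 5.49 to 0.697 RPM, and COL1A2 and COL3A1 had 0 reads in HuCCT1/CD90+. With the replicate block DCN, COL1A2 and COL3A1 were not called (adjusted p = 0.086, 0.09 and 0.1, limma). COL1A1, at 13.5 and 14.2 RPM, and PDGFRA did not pass. The summed level of 5 endothelial markers was 14.9 to 23.4 and 1.29 to 1.86 RPM, with 3 and 4 above the floor. CDH5 carried most of it in HuCCT1/CD90- and fell from 16.6 ± 3.17 to 0.293 ± 0.118 RPM (SD, n = 3 each, adjusted p = 0.0008, limma). PECAM1 was at 2.19 and 0.527 RPM with no overlap and did not pass limma (adjusted p = 0.14). It passed the study's thresholds and DESeq2 (adjusted p = 0.015, in a fit in which 37.1% of genes passed). Its edgeR p is not given as support, since it met that filter through the line in which it was high. TEK was at 0.262 and 0.364 RPM and did not pass (adjusted p = 0.79), and VWF and KDR had 0 reads in HuCCT1/CD90-. In HuCCT1/CD90+ VWF had 1, 3 and 4 reads and KDR 0, 1 and 0. The summed level of 5 immune markers was 61.3 to 66.4 and 85.8 to 103 RPM, with 2 and 3 above the floor and PTPRC at the floor. Its members moved in opposite directions: CD68 rose from 50.8 to 92.2 RPM (adjusted p = 0.0089, limma) and CD79A from 0 reads to 10, 12 and 7 (adjusted p = 0.0089), whereas LYZ fell from 12.0 to 1.52 RPM (adjusted p = 0.0082 from limma and 0.069 under the block).

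**Figure D5:**
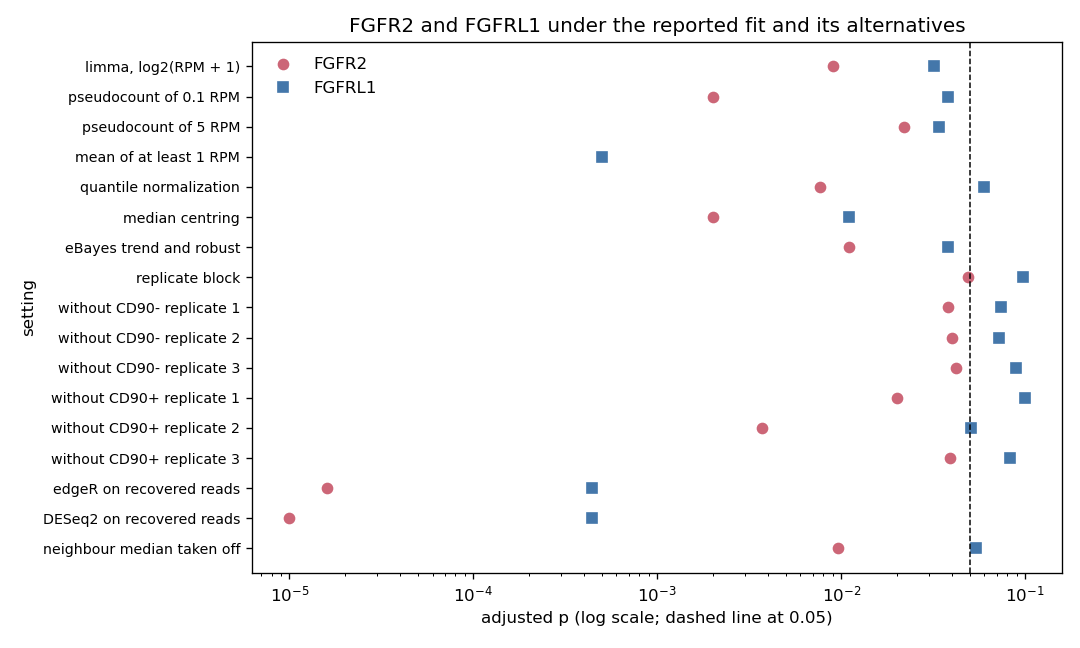
Adjusted p (horizontal axis, log scale) of FGFR2 (circles) and FGFRL1 (squares) in the reported limma fit and under each alternative in which the gene was fitted, with a dashed line at 0.05. Leaving aside the edgeR and DESeq2 points, FGFR2 stays at or below 0.049 in 13 alternatives and FGFRL1 lies above 0.05 in 9 of 14.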

How the data were processed

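Libraries were made from total RNA with an Ion AmpliSeq panel and read on the Ion GeneStudio S5. The authors counted amplicon reads in the ampliSeqRNA plugin and deposited RPM (reads scaled to 1e6 on the panel) for 20811 genes without a filter. The submitters' processing notes name hg19, and the table holds no coordinates. In each library 99.9% to 100% of values were whole multiples of 1 read within 0.05 reads, so reads were recovered.

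Groups came from the library names in the sample descriptions. Log2(RPM + 1) was fitted with limma 3.58.1 in R 4.3.3 (lmFit, eBayes, no filter), and recovered reads with edgeR 4.0.16 (TMM, filterByExpr, 12070 genes) and DESeq2 1.42.0. Adjusted p-values without another name are from limma. The fits were tested on simulated data. There limma without a filter missed more changes than edgeR or DESeq2, the smaller ones above all but larger ones too. Most of its false calls fell at means below 1 RPM, where FGFR2 also lies. Libraries of 1 line differed by more than sampling noise (chi-square per degree of freedom 9.18 to 25.2), so none was a copy. P-values measure the spread between libraries, which may be technical. Deviations of same-numbered libraries from their line means correlated with r = 0.21, 0.32 and 0.18, and different numbers gave -0.29 to 0.07, so the numbers were taken to pair libraries from the data alone. Members and gene lists were chosen with earlier results of these data known. FLRT1 was not found in the table, and ANOS1 and LTO1 were matched by the older symbols KAL1 and ORAOV1. Named genes are the 10 members, the called list genes, up to 2 others per list with the largest change, THY1, NUDT6 and the FGF19 neighbours. LETM2, FRS2, FRS3, FLRT3, FGF22, marker genes, ETV4, ETV5, SPRY2, SPRY4, FGF10, KL and CYP7A1 were named after their values were seen. A further marker gene is not reported here.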

Additional observations from a re-analysis of the deposited data

How the results depend on the processing

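Leaving edgeR and DESeq2 aside, FGFR2 was called in each of 13 alternatives in which it was fitted, with adjusted p-values of 0.0037 to 0.042 when 1 library was left out. Its size depends on the offset, since it had no reads in HuCCT1/CD90-: the log2 fold change was 4.16 with an offset of 0.1 RPM and 0.43 with 5 RPM. FGFRL1 was called in 5 of 14 and had a negative log2 fold change in all 14. It was not called with quantile normalization (adjusted p = 0.06), with the replicate block, with the neighbour median taken off, or in any of the fits without 1 library, each of which has fewer samples. The number of members called higher was 0 with only genes of a mean of at least 1 RPM or at least 10 RPM, which drop FGFR2, and 1 to 1 without 1 library. The number called lower was 0 with a mean of at least 10 RPM, which drops FGFRL1, 0 with quantile normalization, 0 with the replicate block, 0 with the neighbour median taken off and 0 to 0 without 1 library. Pathway genes called higher were 5 to 8 and called lower 4 to 7 without 1 library, with 5 and 4 without HuCCT1/CD90- replicate 3 and without HuCCT1/CD90+ replicate 3. The latter lost 8 of the 15 calls. With each library centred on its median 13 were lower. The replicate block kept 12 of the 15 called pathway genes, the exceptions being GAB1, DUSP6 and SLC51B, and it added MYC (adjusted p = 0.037), FRS3 (0.035) and FGF22 (0.046). Among the members it changed only the call of FGFRL1. The FGFR2 share of receptor RPM differed by 54.6 percentage points, and by 45.6 to 59.3 without 1 library. With FGFR2 at 0 reads in every HuCCT1/CD90- library, this difference only restates its share in HuCCT1/CD90+. Signs that turned were those of genes far from the threshold: FGF1 was at 0.0079 with quantile normalization, 0.02 with DESeq2, and 0.10, 0.0027 and 0.12 without HuCCT1/CD90- replicate 3 and HuCCT1/CD90+ replicates 1 and 2, from -0.16 to 0.12 over the fits without 1 library. FGFR1 was at -0.01 without HuCCT1/CD90+ replicate 1, from -0.01 to 0.28 over these fits, and with the neighbour median taken off FGF2 was at -0.02 and FGFBP1 at 0.0039. The cause of these changes was not tested. Depth limits FGFR1, FGFR3, FGFR4, FGF1, FGF19 and KLB, which had at most 13 reads in any library.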
